A study of Mus musculus with 16 samples.

Results

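The 10 genes described here encode feedback inhibitors and ETS transcription factors of the ERK pathway: Spry1, Spry2, Spry4, Spred1, Spred2, Dusp4, Dusp6, Etv1, Etv4 and Etv5. They were chosen by name, as genes known to follow ERK activity, from the 27807 genes of the table, and all 10 were among the 16124 genes that passed the filter on low values (a mean of at least 10 normalised counts). RNA with poly-A tails was measured in mouse embryonic stem (ES) cells, kept on inactivated fibroblast feeders with LIF, and in embryoid bodies, the floating aggregates in which such cells differentiate. These aggregates were taken ahead of retinoic acid (EB4), a day into it (EB5) and as neural precursors (EB8), on the way to glutamatergic neurons. Libraries were labelled Taf4+/+ (WT) or Taf4-/- (KO), with 2 libraries in each of the 8 groups. All lines came from blastocysts of crosses between Taf4a+/- mice, and KO lines carried a null allele that lacks a pair of internal exons, in every cell and at every stage. Taf4a encodes a subunit of the general transcription factor TFIID. Per the study's methods, each genotype was represented by 2 independent lines.

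ERK signalling starts when a ligand such as a fibroblast growth factor (FGF) binds a receptor tyrosine kinase, which activates RAS and then the kinases RAF, MEK and ERK. Active ERK raises the transcription of its own inhibitors, so that levels of these transcripts are widely used as a readout of the pathway. Sprouty proteins (Spry) act between the receptor and RAF, Spred proteins bring the RAS inactivator neurofibromin to the membrane, and the phosphatases Dusp4 (in the nucleus) and Dusp6 (in the cytoplasm) take phosphate off ERK. Etv1, Etv4 and Etv5 form the PEA3 group of ETS factors, which activate transcription downstream of FGF. In ES cells, FGF4 and ERK are known for moving cells out of the pluripotent state.

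Depth was 32631020 to 40711826 recovered reads in the 4 ES libraries and 22442118 to 27685306 reads in the 12 embryoid body libraries, so that stage and depth cannot be told apart where ES is compared with a later stage. Reads summed over the whole Taf4a gene, which include the exons that the null allele keeps, came to 1591 to 1959.6 normalised counts in the 8 WT and 1973 to 2400.0 in the 8 KO libraries. They do not check the labels, and WT and KO stand for libraries so labelled. The second WT ES library stood apart from its replicate. The median absolute log2 difference between replicates was 0.437 in WT ES and 0.246 to 0.346 in the other groups, and the Y-linked Ddx3y was at 0 in that library against 1237 normalised counts in its replicate and 174 to 572 in the 6 other WT libraries. The 8 KO libraries held 0 to 35.9 counts of it, so that Y-linked transcripts also differed by genotype in the embryoid bodies. Y-linked level therefore cannot be told apart from genotype where KO is compared with WT at EB4, EB5 or EB8. Xist, which is made from an inactive X chromosome, was at 232 to 3000.8 counts in the second KO library of each stage, at 550.1 in the second WT ES library and at 132.0 or fewer in the others. The part of these differences in the results was not tested. The median gene of chromosome 8, which carries Dusp4, was 0.36 to 0.38 log2 units above the mean of its stage in the first WT library of EB4, EB5 and EB8. That of chromosome 11, which carries Etv4 and Spred2, was 0.18 to 0.25 above it in the first KO library of every stage. Same-numbered libraries thus shared features across the WT embryoid body stages and across the KO stages. In the WT ES libraries the median gene of chromosome 8 stood at -0.0 and -0.03, and the second lacked Ddx3y. Line and sex may therefore differ between WT ES and WT embryoid bodies, and cannot be told apart from stage where these are compared. The same holds for genotype differences in such changes. Comparisons between stages were also fitted with the number as a term within genotype, an alternative added after the data had been seen.

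The labelled cell types were checked against marker lists, in summed normalised counts. The 6 pluripotency markers summed to 61586 to 107628 in WT ES, 93817.5 to 102628 in KO ES, 1324 to 1519 in WT EB8 and 23840.2 to 26764 in KO EB8, where 5 of them were higher than in WT. The sums of the 5 neural progenitor markers found in the table were 27541 to 31031 for WT EB8 and 4791.5 to 4831 for KO EB8, where Dbx1 was at the floor of 3 reads or fewer, and 4 of the 5 were lower in KO. The 4 neuronal markers, all lower in KO, summed to 16308 to 21654 in WT EB8 against 1465 to 1567 in KO EB8. The KO EB8 libraries thus held fewer transcripts of the labelled cell type and more of pluripotent cells. In bulk samples such as these, fewer cells of a type and less RNA per cell cannot be told apart. Fibroblast markers, which would show feeder cells, summed to 1424 to 2850.3 in WT ES, 368 to 763 in KO ES, 3283 to 3931 in WT EB8 and 1547 to 4481.5 in KO EB8, with Lum at the floor in 5 of the 8 groups and 0 of 7 called at any stage under limma or edgeR. At an unadjusted p under 0.05 there were 3, 2, 1 and 1 of them from ES to EB8, and DESeq2 called Col1a1, Col1a2 and Col3a1 lower in KO ES and Dcn lower in KO at each later stage. Endoderm markers ranged over 1535 to 1839 in WT EB8 and 610.4 to 668 in KO EB8, where Ttr was at the floor, and mesoderm markers over 401 to 495.5 and 848 to 909.7, with Mesp1 at the floor in the former. Under limma, 2 of the 4 endoderm markers tested at EB8 (Foxa2 and Sox17) were lower with the KO label, and 0 of the 5 mesoderm markers tested passed. Among the latter, Hand1 exceeded both WT values only in the first KO library, and Kdr only in the second. Pluripotency, neural progenitor and neuronal markers therefore moved with genotype at EB8, as did these 2 endoderm markers. The part of cell-type markers in the results was not tested.

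Capicua is a repressor that holds several of these genes down until ERK inactivates it, and it binds octamers such as TGAATGAA and TCAATGGA. Promoter windows of 300 bases (250 before and 50 after a transcript start) were taken from RefSeq on build GRCm38.p6. For 7 of the 10 genes, 9 windows were used, and Etv4, Dusp4 and Spry4 were not searched. Both strands were searched for the Capicua octamers TGAATGAA, TGAATGGA, TCAATGAA and TCAATGGA, for the ETS motif CCGGAAGT and for the AP-1 motif TGACTCA. The 6-base TGAATG, with which the first 2 octamers begin, was added after the windows had been read. At least 1 octamer was in 2 of the 9 windows, those of Spry2 and Dusp6, and in 3.84% of all 32851 windows. TGAATG was in 2 of the 9, those of Dusp6 and of the second Etv5 start, and in 12.7% of all windows. Neither CCGGAAGT (3.89% of all windows) nor TGACTCA (5.2%) was in any of the 9. The 250 bases before the start are shown for these 3 genes because they hold the matches, which are in capitals.

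Etv5, second start (NCBI37 chr16:22438442-22438691, minus strand): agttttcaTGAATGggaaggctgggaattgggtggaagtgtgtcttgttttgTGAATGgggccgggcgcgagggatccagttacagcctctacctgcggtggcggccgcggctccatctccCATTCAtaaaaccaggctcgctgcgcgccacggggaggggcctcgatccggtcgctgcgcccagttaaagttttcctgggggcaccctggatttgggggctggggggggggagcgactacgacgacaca

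Dusp6 (NCBI37 chr10:98725615-98725864, plus strand): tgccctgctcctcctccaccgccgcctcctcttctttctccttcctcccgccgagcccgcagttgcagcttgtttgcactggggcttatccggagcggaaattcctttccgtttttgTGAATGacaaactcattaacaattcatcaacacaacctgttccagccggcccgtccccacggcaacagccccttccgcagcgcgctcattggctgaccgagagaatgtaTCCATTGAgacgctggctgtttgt

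Spry2 (NCBI37 chr14:106296037-106296286, minus strand): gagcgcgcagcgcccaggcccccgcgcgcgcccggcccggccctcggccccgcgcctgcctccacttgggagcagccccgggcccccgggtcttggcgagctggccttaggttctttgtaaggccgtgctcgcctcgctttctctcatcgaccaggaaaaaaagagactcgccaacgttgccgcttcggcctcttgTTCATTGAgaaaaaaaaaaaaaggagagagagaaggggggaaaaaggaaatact

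Each of these windows occurred once on its chromosome in NCBI37. The stretches shown overlapped no annotated exon of the 10 genes, and exons of other genes were not checked. Counting from the transcript start, with -1 as the base before it, the Etv5 window had TGAATG at -242 and -198 and on the opposite strand at -129. The Dusp6 window had TGAATG at -133 and TCAATGGA on the opposite strand at -24, and a further TCAATGGA on that strand at 2, beyond the stretch shown. The Spry2 window had TCAATGAA on the opposite strand at -54. A match describes letters only.

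The first question was how KO differed from WT at each stage. For none of the 10 genes did a difference pass the threshold in ES. Etv5 was higher in KO at EB4, Etv4 and Etv5 at EB5, and at EB8 Spry4, Etv5, Etv4 and Spred2 were higher and Dusp4 was lower. The test was limma on log2(normalised count + 1), with p-values adjusted over all 16124 genes by the Benjamini-Hochberg method and a threshold of 0.05, and with this pseudocount a fold change of a low gene is understated. In ES, 0 of all genes passed under limma (0%), with 1846 at an unadjusted p under 0.05, 0 called by edgeR and 469 by DESeq2. Of the members, 0 passed in ES under any of these and 0 had an unadjusted p under 0.05. The share of all genes called was 6.12% at EB4, 4.34% at EB5 and 22.9% at EB8, against 1, 2 and 5 of the 10 members. Genes higher in KO were 2.75%, 2.17% and 10.4% of all genes at these stages, against 1, 2 and 4 members, and genes lower in KO were 3.37%, 2.17% and 12.5%, against 0, 0 and 1. Upper-quartile rescaling turned the split of all genes at EB8 from 1677 higher and 2020 lower to 2278 and 1615, and it moved the median of all genes from -0.03 to 0.11. The median log2 difference of the members was 0.22, 0.10, 0.64 and 0.91 from ES to EB8, beside medians over all genes between -0.03 and 0.

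**Figure D1:**
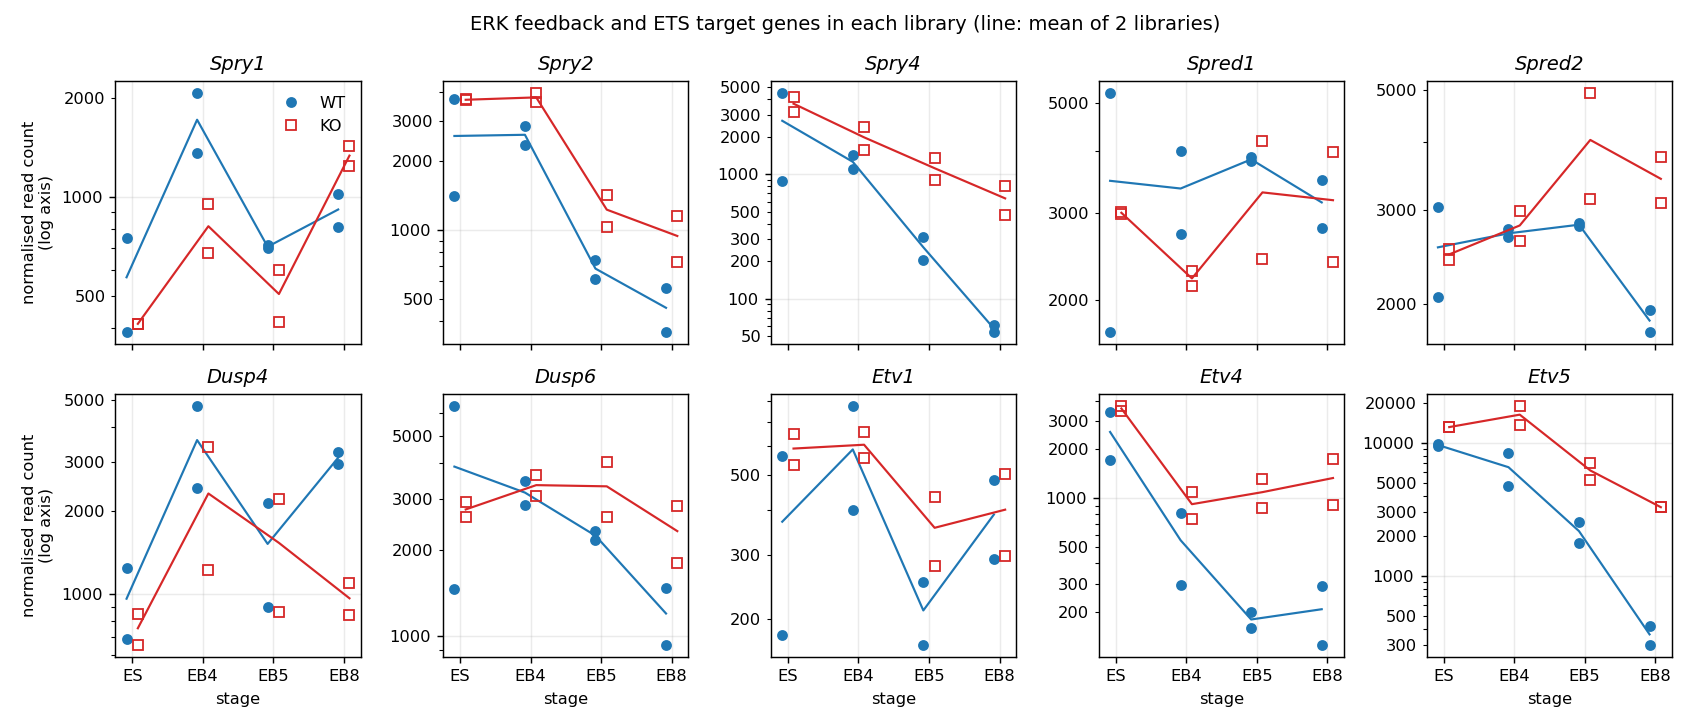
Normalised read counts (log axis, a scale of its own in each panel) of the 10 genes in every library by stage, with filled circles for WT, open squares for KO and lines through the means of 2 libraries. The WT and KO lines of Spry4, Etv4 and Etv5 part towards EB8, where the 2 KO libraries lie above the 2 WT libraries, while those of Dusp4 part the other way.

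Etv5 (ENSMUSG00000013089, NCBI37 chr16:22381382-22439792, minus strand) had WT values of 9834 and 9400.0 normalised counts and KO values of 13042.5 and 13195 in ES. At EB4 the WT libraries held 8379 and 4713 and the KO libraries 13639 and 18899.7, and at EB5 they held 2553 and 1770.2 against 7098 and 5271. At EB8 the WT values were 301 and 421, the KO values 3274 and 3273.5. The KO libraries were above the WT libraries at all 4 stages. The log2 difference was 0.45 (adjusted p = 0.591, limma) in ES, 1.35 (0.0186) at EB4, 1.52 (0.015) at EB5 and 3.20 (3.03e-05) at EB8, with a standard error of 0.28 at each. The ratio of means at EB8 was 9.06, and the difference there ran from 2.95 to 3.44 when a library was left out and passed under all 27 alternatives. The EB4 call was lost without the second WT EB4 library (0.94) or the second KO EB4 library (1.12), and the EB5 call without the second WT EB5 library (1.26) or either KO EB5 library (1.31 and 1.74). Both were also lost when only the compared groups were fitted.

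Etv4 (ENSMUSG00000017724, NCBI37 chr11:101631056-101646685, minus strand), another PEA3 factor, had WT values of 3394 and 1732 normalised counts and KO values of 3445 and 3701 in ES. At EB4 the WT values were 814 and 293 and the KO values 1096 and 749. The genotypes overlapped at EB4 and not in ES. At EB5 the WT libraries had dropped to 161 and 199.9 while the KO libraries held 1319 and 869, and at EB8 these were 126 and 291 and 913 and 1759. The genotypes were apart at both of these stages. Its log2 difference was 0.56 (adjusted p = 0.744) in ES, 0.89 (0.343) at EB4, 2.57 (0.0229) at EB5 and 2.72 (0.00326) at EB8, with a standard error of 0.52. At EB8 the ratio of means was 6.40 and the call held under all 27 alternatives (2.12 to 3.32 with a library left out). At EB5 it was lost when any of the 4 EB5 libraries was left out (2.27 to 2.87). The first KO library, in which chromosome 11 was raised (by 0.25 at EB8), had the lower of the 2 KO values in ES and EB8 and the higher at EB4 and EB5. The part of chromosome 11 in these values was not tested.

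Etv1 (ENSMUSG00000004151, NCBI37 chr12:39505967-39594802, plus strand), the third PEA3 factor, lay between 170.2 and 773 normalised counts in all libraries. Its EB8 values were 293 and 484 in WT libraries against 299 and 503 in KO libraries, which overlapped. No difference passed at any stage. That at EB8 was 0.04 (adjusted p = 0.966), with a 95% interval from -1.05 to 1.14, so that differences of the size seen for Etv4 and Etv5 lay outside it.

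Spry4 (ENSMUSG00000024427, NCBI37 chr18:38745922-38760922, minus strand) had the largest difference at EB8 among the 10 genes. In ES the WT libraries held 4493 and 877 normalised counts, on either side of the KO libraries with 3165 and 4205. At EB4 the WT values were 1416 and 1097 and the KO values 2379 and 1575, and at EB5 312 and 204 stood against 1337 and 895. At EB8 the WT libraries held 60.9 and 54.0 and the KO libraries 467 and 809.6. The KO libraries were above the WT libraries at EB4, EB5 and EB8. Its log2 difference was 0.88 (adjusted p = 0.608), 0.63 (0.551), 2.11 (0.0594) and 3.40 (0.00147) from ES to EB8, with a standard error of 0.57. At EB8 the ratio of means was 11.1 and the call held under all 27 alternatives (3.00 to 3.80 with a library left out). In ES its difference was -0.30 without the second WT library and 2.06 (adjusted p = 0.0496) without the first, and at EB5 it passed without either WT ES library, under quantile normalisation, with either replicate block and under DESeq2.

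Spry2 (ENSMUSG00000022114, NCBI37 chr14:106291166-106296036, minus strand) had WT values of 3738 and 1416 normalised counts in ES, where the KO values were 3722 and 3694. At EB4 the WT values were 2354 and 2862 and the KO values 3969.7 and 3625.5, and at EB5 744 and 615 stood against 1426 and 1033. It ended at 360.2 and 557 in WT EB8 libraries and 728 and 1159 in KO EB8 libraries. The KO libraries were above the WT libraries at the 3 embryoid body stages, but no difference passed the threshold. At EB8 the log2 difference was 1.03 ± 0.38 (SE; adjusted p = 0.0693, 95% interval 0.21 to 1.86), and it passed under upper-quartile rescaling, quantile normalisation and DESeq2 and without either WT ES library.

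Spry1 (ENSMUSG00000037211, NCBI37 chr3:37538869-37543520, plus strand) changed sides. In ES the WT values were 390.5 and 753 normalised counts and the KO values 413 and 412. At EB4 the WT libraries held 2071 and 1365 and the KO libraries 956 and 678, and at EB5 699 and 716 stood against 600.1 and 417. At EB8 the WT values were 812 and 1024, the KO values 1246 and 1428.5. The KO libraries were below the WT libraries at EB4 and EB5 and above them at EB8. The log2 differences were -1.06 (adjusted p = 0.0667) at EB4, -0.50 (0.403) at EB5 and 0.55 (0.234) at EB8, with a standard error of 0.32. None passed, and that at EB4 passed without either WT ES library and under DESeq2.

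Spred2 (ENSMUSG00000045671, NCBI37 chr11:19824378-19924029, plus strand) had overlapping genotypes in ES, with 3040.0 and 2066 normalised counts in WT libraries and 2421.5 and 2533 in KO libraries, and at EB4, with 2756 and 2665 against 2987 and 2619.9. At EB5 the WT values were 2830.5 and 2795 and the KO values 4940.5 and 3143, and at EB8 they were 1779 and 1954.5 and 3764.5 and 3079.6. The genotypes did not overlap at these later stages. Its log2 difference at EB8 was 0.87 ± 0.22 (SE; adjusted p = 0.0143), a ratio of means of 1.83. That call was lost without the first (0.80) or second (0.94) WT EB8 library and without the first KO EB8 library (0.72), in which chromosome 11 was raised. The first KO library had the higher of the KO values of Spred2 at EB4, EB5 and EB8 and the lower in ES. The part of chromosome 11 in these values was not tested.

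Spred1 (ENSMUSG00000027351, NCBI37 chr2:116947110-117008015, plus strand) ranged from 1728 to 5246 normalised counts, and both extremes were WT ES libraries. Its EB8 libraries, WT with 2799.6 and 3508 and KO with 2392 and 3981, overlapped. No difference passed at any stage. At EB8 it was -0.02 (adjusted p = 0.979, 95% interval -0.95 to 0.91), and its sign was positive under upper-quartile rescaling, quantile normalisation, edgeR and DESeq2 (0.02 to 0.13), without the second WT EB8 library (0.14) and without the first KO EB8 library (0.35).

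Dusp4 (ENSMUSG00000031530, NCBI37 chr8:35870351-35882948, plus strand) was the member that was lower in KO at EB8. In ES the WT libraries held 1238 and 686 normalised counts and the KO libraries 849 and 655, and at EB4 4772 and 2418 stood against 3395 and 1217. At EB5 the WT values were 2136 and 897 and the KO values 2197 and 863. The first library was the higher of its pair in each of these 6 groups, and the genotypes overlapped. At EB8 the WT values were 3265 and 2944.5, the KO values 1092 and 838, and they did not overlap. The log2 difference at EB8 was -1.70 ± 0.57 (SE; adjusted p = 0.0492), a ratio of means of 0.311. This call at the threshold was lost under 12 of the 27 alternatives, among them edgeR (adjusted p = 0.0596), quantile normalisation, upper-quartile rescaling, no filter, and the fits without either KO ES library or any EB8 library (-1.89 to -1.5). The first library was also the higher of its pair in both EB8 groups. Chromosome 8 stood at 0.37 in the first WT EB8 library and at -0.13 in the second. The part of chromosome 8 in these values was not tested.

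Dusp6 (ENSMUSG00000019960, NCBI37 chr10:98725865-98730122, plus strand), the other phosphatase, had WT values of 6338 and 1461 normalised counts in ES, on either side of the KO values of 2607 and 2926. At EB4 2862 and 3472 in WT libraries stood against 3638 and 3086 in KO libraries, and at EB5 2162 and 2321 against 4051 and 2607.5. At EB8 the WT values were 935 and 1468.5 and the KO values 1807 and 2843. The KO libraries were above the WT libraries at EB5 and EB8. As the standard error pools the spread of all 8 groups, it includes the gap between the WT ES libraries. The differences missed the threshold, with 0.95 ± 0.50 (SE; adjusted p = 0.197) at EB8. It passed at EB8 without either WT ES library (lowest adjusted p = 0.0268).

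**Figure D2:**
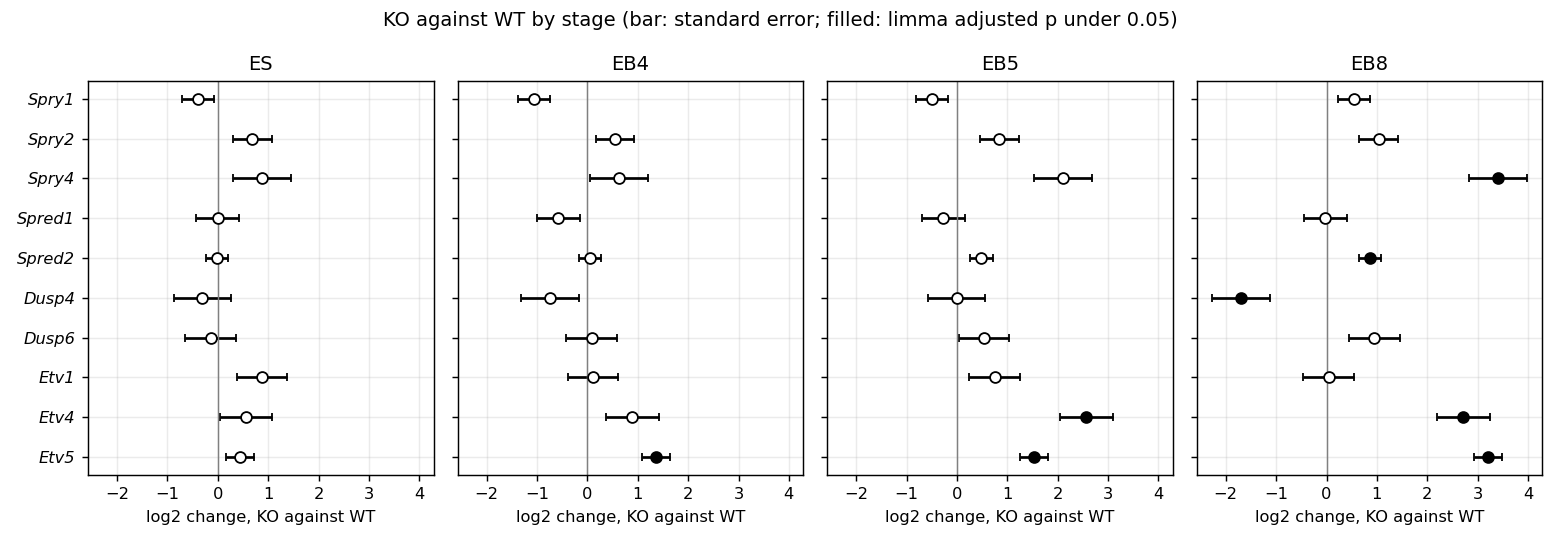
Log2 difference of KO against WT for each gene at the 4 stages, with bars of 1 standard error and filled points where limma's adjusted p was under 0.05. There are no filled points in ES, 1 at EB4, 2 at EB5 and 5 at EB8, where Dusp4 is the one to the left of 0.

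Counted by arrangement, both KO values were above both WT values for 7 members at EB8, 7 at EB5, 3 at EB4 and 2 in ES, beside 30.4%, 26.7%, 25.3% and 19% of all genes. Both KO values were below both WT values for 1 member at EB8 (Dusp4), 1 at EB5 (Spry1), 2 at EB4 (Spry1 and Spred1) and 0 in ES, beside 33.5%, 28.1%, 26.6% and 20.7% of all genes.

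The second comparison followed the genes along differentiation within each genotype, and it shares libraries with the first. From ES to EB8, Spry4, Etv5, Etv4 and Spry2 fell in WT and in KO. By ratio of means the fall in WT was 46.7-fold for Spry4, 26.6-fold for Etv5, 12.3-fold for Etv4 and 5.62-fold for Spry2. The WT folds rest in part on ES libraries that differed: on the log2 scale the WT change was -5.09 for Spry4 and -2.36 for Spry2, and without the first WT ES library it was -3.91 and -1.66, the latter smaller in size than the change of Spry2 in KO (-2.01). Without the second it was -6.27 and -3.06, and that of Etv4 ran from -4.26 to -3.05 with a library left out. In KO the fall was 5.77-fold, 4.01-fold, 2.675-fold and 3.93-fold, and the KO fall of Etv4 was lost under 7 of the 28 alternatives for comparisons between stages. Dusp6 also fell in WT (-1.38 log2, adjusted p = 0.0399), a call that was lost under 9 alternatives, among them the fit without the first WT ES library (-0.32). Dusp4 rose in WT (1.75, adjusted p = 0.0238; lost without the second WT ES or either WT EB8 library) and Spry1 rose in KO (1.69, adjusted p = 0.00155). Thus 1 member was higher and 5 were lower in WT, beside 24% and 22.8% of all genes (46.8% together), and 1 was higher and 4 were lower in KO, beside 19.7% and 18% (37.7%). This span was added after the data had been seen.

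The log2 change of Etv5 from ES to EB8 was -4.75 ± 0.28 (SE; adjusted p = 5.98e-07) in WT and -2.002 ± 0.28 (0.000278) in KO. The difference between these changes was 2.75 ± 0.39 (SE; adjusted p = 0.00334), and it passed under all 28 alternatives with adjusted p-values from 3.03e-08 to 0.0165. Etv5 was the 1 member whose change differed between genotypes, beside 7.29% of all genes, 3.85% with a higher and 3.44% with a lower value in KO. For Spry4 the changes were -5.09 in WT and -2.57 in KO, and their difference of 2.52 ± 0.81 (SE) missed the threshold (adjusted p = 0.0779) but passed without the second WT ES library, under quantile normalisation and under DESeq2. For Etv4 they were -3.65 and -1.49, and the difference was 2.16 ± 0.74 (adjusted p = 0.0951), which passed under DESeq2. For Spry2 they were -2.36 and -2.01, with a difference of 0.35 (adjusted p = 0.739, 95% interval -0.83 to 1.52).

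Step by step, calls came at different times for different genes. Between ES and EB4 in WT, Etv4 fell by 2.31 on the log2 scale (adjusted p = 0.0124) while Spry1 rose by 1.63 (0.00595) and Dusp4 by 1.88 (0.0407), the last being lost under 12 of the 28 alternatives. The fall of Etv4 was lost without the first WT ES or the second WT EB4 library, and all 3 calls were lost when only the compared groups were fitted. These 2 higher members and 1 lower member stand beside 8.98% and 7.57% of all genes (16.5% together). In KO no member passed that step, beside 3.5% of all genes (2.51% higher, 0.992% lower), and Etv4 stood at -1.98 (adjusted p = 0.0579). At an unadjusted p under 0.05, 3 members passed there, and DESeq2 called 3 and edgeR 0. With the replicate block within genotype, Etv4 (adjusted p = 0.0483) and Dusp4 (1.45, adjusted p = 0.035) passed in KO.

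Between EB4 and EB5 in WT, Etv5 fell by 1.56 (adjusted p = 0.00764), Spry2 fell by 1.94 (0.0138), Spry4 fell by 2.30 (0.0467) and Spry1 fell by 1.25 (0.0493). These 4 lower members and 0 higher members stand beside 1.14% and 2.59% of all genes (3.73% together). The falls of Spry4 and Spry1 lay at the threshold and were lost in edgeR and in most fits with a library left out. Those of Etv5 and Spry2 were lost without the first WT EB4 or the second WT EB5 library, and that of Spry2 also without the second WT EB4 library. In KO, Etv5 fell by 1.39 (adjusted p = 0.0204) and Spry2 fell by 1.64 (0.0428), beside 0.695% of all genes lower and 1.82% higher (2.51% together), and these calls were lost under 5 and 14 of the 28 alternatives, each of them when either KO EB5 library or the second KO EB4 library was left out.

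Between EB5 and EB8 in WT, Etv5 fell by 2.57 (adjusted p = 0.000198) and Spry4 fell by 2.12 (0.0348), beside 4.62% of all genes lower and 5.82% higher (10.4% together). The call of Spry4 was lost without any 1 of the 4 WT libraries of these stages, and that of Etv5 held under all 28 alternatives. In KO the changes of Etv5 and Spry4 in that step were -0.90 (adjusted p = 0.18) and -0.83 (0.616). No member passed in KO, beside 0.738% of all genes (0.428% higher, 0.31% lower), with 2 at an unadjusted p under 0.05, 1 called by DESeq2 and 0 by edgeR. With the replicate block within genotype, Spry1 passed (1.41, adjusted p = 0.0444). For the difference between genotypes of the 3 steps, 0 members passed under limma or edgeR, beside 0%, 0% and 0.781% of all genes, the last made of 0.0992% higher and 0.682% lower. At an unadjusted p under 0.05 there were 1, 1 and 2 members, and DESeq2 called 0, 0 and 1. That of Etv5 from EB5 to EB8 was 1.67 ± 0.39 (SE; adjusted p = 0.0814).

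**Figure D3:**
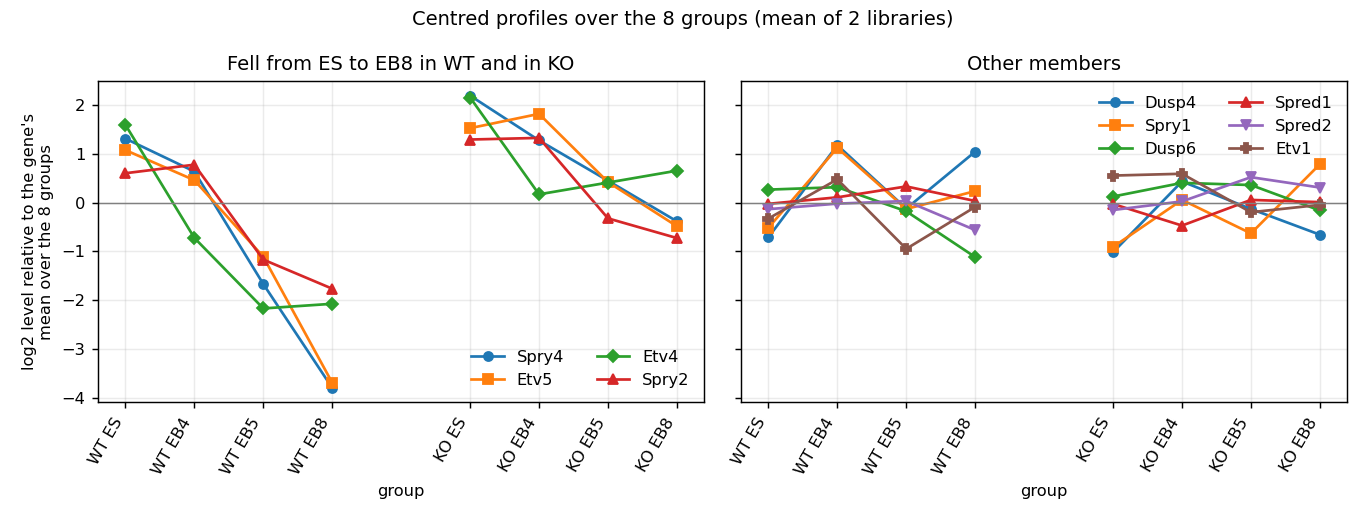
Log2 level of each gene relative to its own mean over the 8 groups (y axis), for the WT and KO groups by stage (x axis), as means of 2 libraries. On the left, Spry4 and Etv5 run side by side down to -3.785 and -3.68 in WT EB8 and end at -0.38 and -0.48 in KO EB8. On the right, Dusp4 and Spry1 share a peak at WT EB4.

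Likeness of profile was measured as the mean absolute difference between centred log2 levels over the 8 group means, and it says nothing of function. Of all other genes tested, Etv5 was the one most like Spry4, at 0.301, followed by Triml1 at 0.324 and Zfp296 at 0.334. Seen from Etv5, Spry4 ranked 5, behind genes that included Pla2g10 (0.189), Slc39a4 (0.242) and Pla1a (0.259). By likeness to Spry4 among the 16124 genes tested, Spry2 ranked 203 (0.678) and Etv4 ranked 308 (0.758). These members were thus not among its 3 nearest genes, but were nearer to it than most genes. The nearest to Etv4 were Hspb1 (0.286), Phlda2 (0.303) and Nqo1 (0.311), and the nearest to Spry2 were Irgm1 (0.195), Lef1 (0.239) and Socs2 (0.255). Dusp4 and Spry1 were 0.436 apart, while Dusp4 and Spry4 were 1.725 apart.

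Levels of different genes were compared per length, as RPKM (reads divided by the annotated exon length and by the depth of the library, mean ± SD, n = 2). In ES, Etv5 had the highest level of the 10 in both genotypes, 81.4 ± 0.938 in WT and 108 ± 3.42 in KO, above Dusp6 at 47.5 ± 40.7 in WT and Spry2 at 60.1 ± 1.09 in KO. In WT EB8 the order was led by Dusp4 (42.4 ± 2.26), well above Spred1 (17.4 ± 3.11), Dusp6 (16.1 ± 5.38) and Spred2 (15.1 ± 1.31), which did not differ from each other beyond their spread. Spry1 followed at 11.8 ± 2.17 and Spry2 at 8.26 ± 2.66, and Etv5 (3.31 ± 0.84), Etv4 (2.53 ± 1.46) and Etv1 (2.48 ± 0.907) lay within their spread of one another. Spry4 was lowest, at 0.469 ± 0.031. In KO EB8 the order was led by Dusp6 (34.8 ± 11), Etv5 (33.3 ± 0.041) and Spred2 (31.0 ± 4.34), which overlapped, and Spred1 (19.6 ± 6.95), Spry1 (19.2 ± 1.88), Spry2 (18.9 ± 6.13) and Etv4 (17.988 ± 8.08) formed a middle group. Dusp4 was at 14.7 ± 2.72, Spry4 at 5.82 ± 2.21 and Etv1 at 2.84 ± 1.03.

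The make-up of the families was given by the share of each gene in the summed level per length, a measure without a test of its own. Spry2 took most of the Sprouty sum in ES, with 60.1% to 68.2% in the 4 libraries. By EB8 the WT libraries gave Spry1 60.0% and 55.8%, Spry2 37.1% and 42.3% and Spry4 2.85% and 1.87%. The KO libraries gave Spry1 48.7% and 40.2% and Spry4 11.6% and 14.4%, so that the genotypes did not overlap for either gene. Among PEA3 genes, Etv5 took 66.85% to 93.2% of the sum in all libraries up to EB5. At EB8 its share was 44.8% and 36.85% in WT libraries and 69.8% and 55.03% in KO libraries, and that of Etv1 was 30.4% and 29.5% against 4.44% and 5.89%. Of the phosphatase pair, Dusp4 held 78.1% and 67.2% in WT EB8 libraries and 38.1% and 23.1% in KO EB8 libraries.

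**Figure D4:**
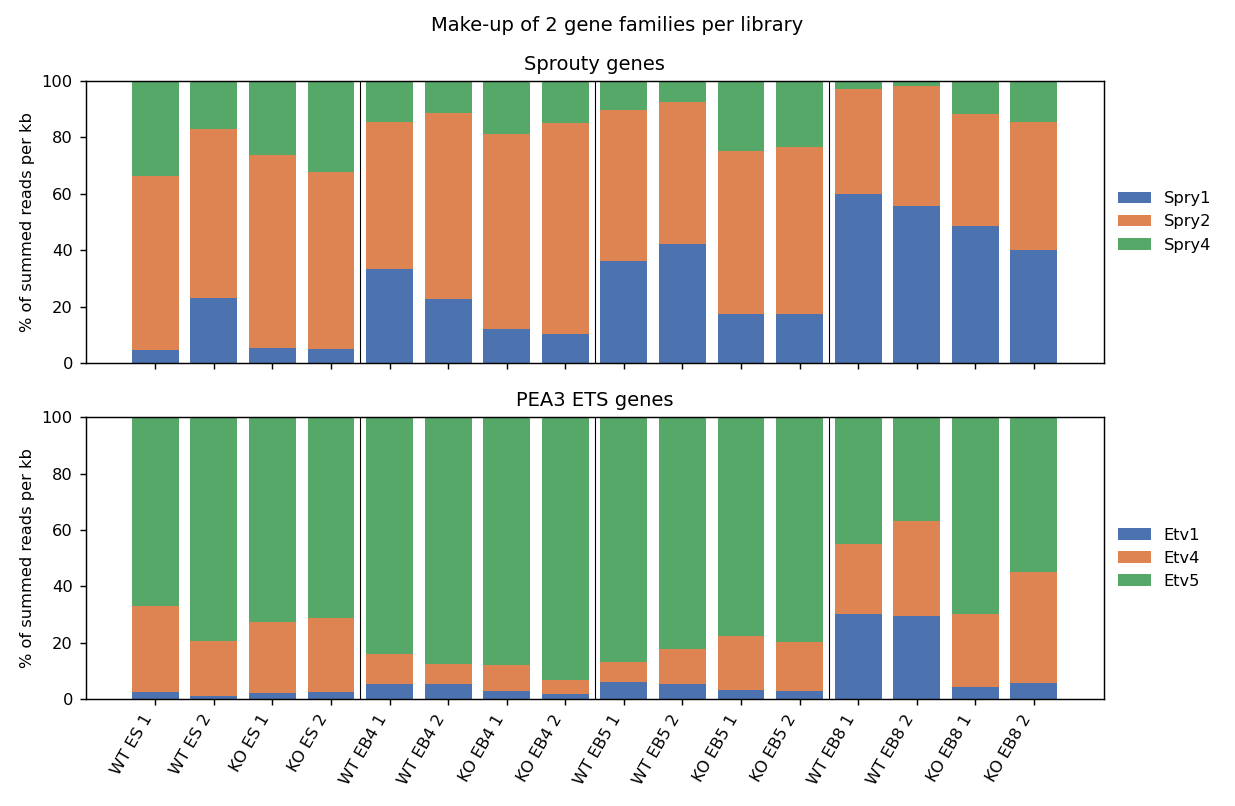
Share of each gene in the summed reads per kilobase of its family (y axis, percent) in each of the 16 libraries (x axis), for the Sprouty genes (top) and the PEA3 ETS genes (bottom). At EB8 the Spry4 share is 2.85% and 1.87% in WT libraries and 11.6% and 14.4% in KO libraries, and the Etv1 share is 30.4% and 29.5% against 4.44% and 5.89%.

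The rest of the pathway was taken from 6 lists of 69 genes, chosen by name, of which 67 were tested. In ES, 0 genes of any list passed under limma or edgeR, with 5 or fewer at an unadjusted p under 0.05 in each list, and the genes DESeq2 called included Sos2 and Atxn1. At EB8, 2 of 9 FGF ligands and receptors were higher in KO and 3 were lower, beside 10.4% and 12.5% of all genes, the shares against which each list at EB8 is to be read. Fgf4, the ligand that ES cells make themselves, had WT values of 7.4 and 61.4 normalised counts at EB8 and KO values of 450.5 and 898 (log2 4.80, adjusted p = 0.00174). Fgf17 was higher too (2.31, adjusted p = 0.0182), with 44.7 counts or fewer in each EB8 library, a call that was lost without the second WT (1.51) or the second KO EB8 library (1.54) and when only the compared groups were fitted. Fgf15, a ligand of the embryonic brain, had 106 and 91.1 counts in WT libraries against 1.1 and 6.4 in KO libraries (-4.67, adjusted p = 0.000279). The receptor Fgfr3 had 2408 and 2875 against 208 and 218 (-3.62, adjusted p = 0.000153), and Fgfr4 was lower (-1.66, adjusted p = 0.0205), which was lost when any of the 4 EB8 libraries was left out. The calls of Fgf4, Fgf15 and Fgfr3 at EB8 held under all 27 alternatives. Fgfr1, the main FGF receptor of ES cells, did not pass at EB8 (0.49, adjusted p = 0.155), and Fgf2 was below the filter.

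At earlier stages, Fgfr1 was the 1 gene of that list called at EB4 (-0.93, adjusted p = 0.0395; lost under 9 of the 27 alternatives), beside 3.37% of all genes lower. At EB5, 2 were higher, Fgf4 (3.30, adjusted p = 0.0457) and Fgf17 (2.85, adjusted p = 0.0276), and 3 were lower, Fgfr2 (-1.70, adjusted p = 0.0266), Fgfr4 (-1.96, adjusted p = 0.035) and Fgf15 (-2.30, adjusted p = 0.0479), beside 2.17% of all genes in each direction. None of these EB5 calls was firm. Those of Fgf4 and Fgf15 were lost under 14 of the 27 alternatives each, that of Fgfr4 under 8, that of Fgf17 under 5 and that of Fgfr2 under 4, in each case without either WT EB5 library or the second KO EB5 library. Without that KO library Fgf4 stood at 2.37 and Fgfr2 at -1.27.

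Of 19 adaptors and kinases between receptor and ERK, 1 was higher and 3 were lower at EB8, and the median difference of the list was -0.02. These 4 calls are near the 22.9% of all genes called. Shc1, an adaptor, was higher (0.97, adjusted p = 0.00853), and Nras (-0.68, 0.0262) and the RAS activator Sos2 (-0.75, 0.0464) were among the lower genes. The call of Sos2 was lost under 16 of the 27 alternatives, that of Nras when any of the 4 EB8 libraries was left out and that of Shc1 without the first WT EB8 library (0.84). At EB4, 3 genes were lower, beside 3.37% of all genes, among them the ERK1 gene Mapk3 (-0.79, 0.0396) and Sos2 (-1.06, 0.0307). At EB5 Sos2 was lower (-1.02, 0.0397), beside 2.17% of all genes. The calls of Mapk3 at EB4 and of Sos2 at EB4 and EB5 were lost under 13, 4 and 13 of the 27 alternatives. In each case these included the fits without any KO library of the stage.

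Of 12 other inhibitors, 2 were higher and 0 lower at EB8, with a median of 0.41 and the same counts under edgeR and DESeq2. Dusp9, an ERK phosphatase encoded on the X chromosome, had WT values of 1561.5 and 1525 normalised counts and KO values of 11579 and 10868 (2.86, adjusted p = 0.00357). The median X-linked gene stood at 0.44 in the second KO EB8 library and at -0.20 to -0.09 in the other 3, and Dusp9 was as high in the first KO library as in the second. In KO EB4, KO EB5 and WT ES, Dusp9 was higher in the second library, where the X-linked medians were 0.54, 0.43 and 0.37. Its counts were 2348 and 6115 in KO EB4 libraries, 7586 and 16875 in KO EB5 libraries and 4622 and 11477 in WT ES libraries. The WT EB4 libraries also differed, at 12.9 and 34.4 RPKM, with X-linked medians of -0.18 and -0.12, neither of them raised. The part of X-linked level in these values was not tested. Il17rd, a membrane inhibitor of FGF receptors, had 942 and 1963 counts in WT libraries against 2625 and 4546 in KO libraries (1.34, adjusted p = 0.0215), a call that was lost without the first WT (0.82) or the second KO EB8 library (0.95) and when only the compared groups were fitted. At EB5, Dusp9 was higher (2.31, adjusted p = 0.0396), a call that was lost under 11 of the 27 alternatives and stood at 1.73 without the second KO EB5 library. Flrt3 was lower (-2.14, 0.0276), which was lost under 4, with -1.43 without that library.

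Of 14 other ETS factors, 2 were higher and 0 lower at EB8, also under edgeR and DESeq2. Erf, a repressor that ERK inactivates, had 1315 and 1728 normalised counts in WT libraries and 4664 and 3852 in KO libraries (1.49, adjusted p = 0.00513). Spic had 14.7 and 11.6 against 91.8 and 98.0 (2.77, adjusted p = 0.00446), and was also higher at EB4 (2.94, adjusted p = 0.0147), which was lost without either WT EB4 library, without the second KO EB4 library and when only the compared groups were fitted. Of 10 other transcripts known to rise with ERK activity, 1 was higher and 2 were lower at EB8, with a median of 0.06. Lif was higher (1.66, adjusted p = 0.00522; lost without the second WT EB8 library, at 1.43), while Phlda1 (-1.82, 0.00286) and the cyclin gene Ccnd1 were lower. Ccnd1 had 7111 and 5281 counts in WT EB8 libraries and 561 and 1346.5 in KO EB8 libraries (-2.82, adjusted p = 0.00134). Of the 3 Capicua complex genes (Cic, Atxn1 and Atxn1l), 0 passed at any stage under limma or edgeR, 1 had an unadjusted p under 0.05 in each of ES, EB4 and EB5, and DESeq2 called Atxn1 in ES alone. Cic itself had 4111 and 5597 normalised counts in WT EB8 libraries and 7315 and 4473 in KO EB8 libraries (0.25, adjusted p = 0.464).

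**Figure D5:**
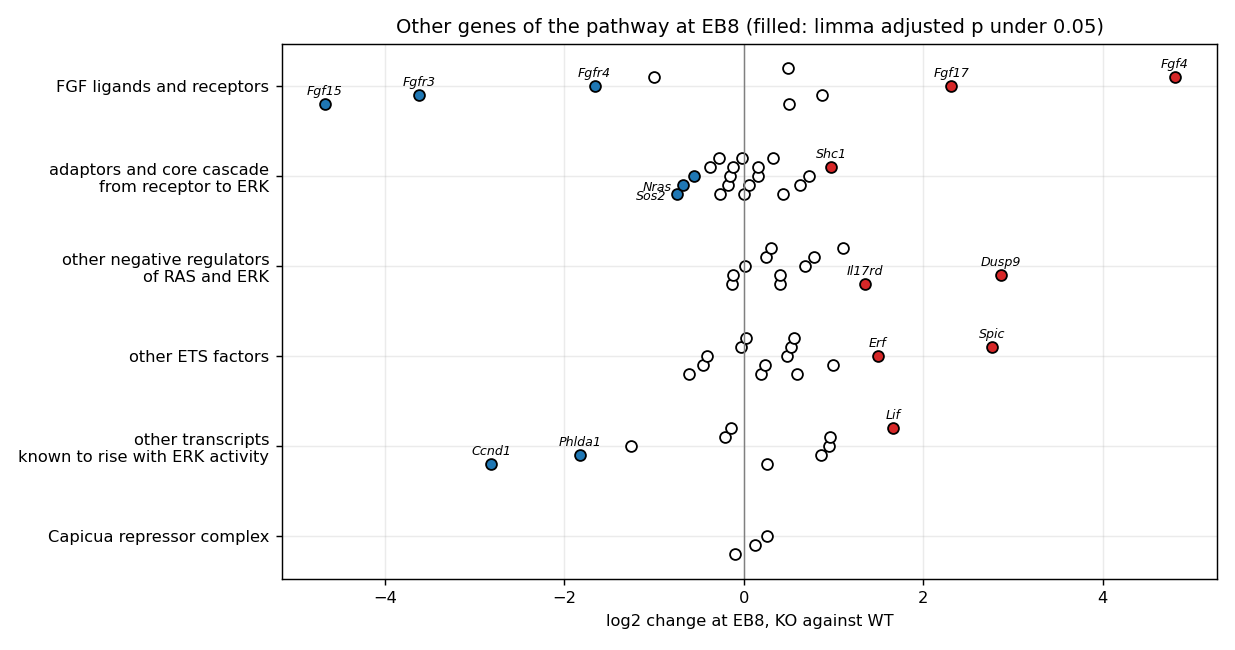
Log2 difference of KO against WT at EB8 (x axis) for the other pathway genes by list (y axis), 1 point per gene, filled red where higher and blue where lower at a limma adjusted p under 0.05. Fgf4 at 4.80 and Fgf15 at -4.67 are the outermost points, and the 3 genes of the Capicua list lie between -0.10 and 0.25.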

How the data were processed

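Polyadenylated RNA from 16 mouse libraries, 2 for each of 8 groups of genotype and stage, was sequenced as single reads. Per the submitters' processing notes, the authors used CASAVA 1.7 or 1.8, TopHat2 2.0.10, HTSeq 0.5.4p3 and DESeq2 1.0.19 with build mm9. The deposited values are a signal of normalised read counts, made by the authors by dividing the reads of a gene by a size factor of the library. Whole reads were recovered from them, with 100% of values whole within 0.001 of a read. Use of strand in counting is not given in the sources used here, and no annotated gene overlapped a member. Of 27807 identifiers, 27603 were found in GENCODE M1, which gave positions and exon lengths.

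The 16124 genes whose mean over all libraries reached 10 normalised counts entered limma 3.58.1 in R 4.3.3 on log2(normalised count + 1), with 8 group means over all 16 libraries, 8 residual and 4.27 prior degrees of freedom, and Benjamini-Hochberg adjustment at 0.05. The recovered reads were also given to edgeR 4.0.16 (quasi-likelihood) and DESeq2 1.42.0. Other alternatives were pseudocounts, filters, rescalings, a replicate block, a fit of the compared groups, and each library left out. The steps were tested on simulated data with independent libraries and a single setting of spread for every gene. That test does not give the error rate in libraries that share features across stages. All 10 members are named, as are the pathway genes called in a KO against WT comparison, except that the values of some are not reported here. Cic and Atxn1 were chosen after their values were seen. The 3 genes most like a member are named by rank. Members and lists were chosen with earlier results of these data known. The labels do not tie a replicate number to a line, and p-values measure the spread between these libraries. A gene with 3 reads or fewer in each library of a group is at the floor, which covers counting error only. Spry3 and Sox1 were not matched, Fgf2 was below the filter, and promoters of Etv4, Dusp4 and Spry4 are not used here. Python 3.11.15 with pandas 2.3.3 was used for tables.

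Whether same-numbered libraries deviate together was checked by correlating the differences between the first and second library over genes. Between genotypes the correlation was 0.335 in ES, -0.058 at EB4, -0.209 at EB5 and -0.133 at EB8, so that WT and KO libraries were not taken as pairs. Within a genotype it was 0.523 to 0.605 among WT EB stages and 0.233 to 0.422 among KO stages. Between WT ES and the WT EB stages it was -0.179 to -0.048. The numbers thus pair libraries across the WT EB stages. Between WT ES and KO, which differ in genotype, it was 0.281 at EB4, 0.368 at EB5 and 0.056 at EB8. The values among KO stages overlap these, and do not by themselves show that numbers pair KO libraries. A replicate block within genotype was added for comparisons between stages. It was not used for KO against WT, where it would remove the spread between lines.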

Additional observations from a re-analysis of the deposited data

Results flagged for a closer look

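The change of Etv5 from ES to EB8 differed between genotypes by 2.75 on the log2 scale, KO minus WT (adjusted p = 0.00334 in limma's interaction term), with the KO EB8 libraries at 3274 and 3273.5 normalised counts and the WT EB8 libraries at 301 and 421. Line and sex cannot be told apart from stage in the WT part of that change.

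Spry1 had its KO libraries below its WT libraries at EB4 and above them at EB8, and its log2 difference at EB8 exceeded that at EB4 by 1.61. That contrast between stages was not tested.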

How the results depend on the processing

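Of 3037 values of 111 log2 changes under 28 alternatives (27 for KO against WT), 16 of which left out a library, 2691 kept direction and side of the threshold, 270 lost the call, 47 gained it and 29 changed sign. The calls of Etv5, Etv4 and Spry4 at EB8 and the Etv5 difference between genotypes from ES to EB8 held under all that were run. Members called, limma count first: KO against WT gave 1 at EB4 (0 with only the compared groups, 2 in DESeq2) and 2 at EB5 (1 with only the compared groups). EB4 against ES gave 3 in WT (0 with only the compared groups) and 0 in KO (1 with the replicate block, 2 with the block within genotype, 3 in DESeq2). EB5 against EB4 gave 4 in WT (2 with pseudocount 0.1, no filter, only the compared groups or edgeR) and 2 in KO (1 with no filter or edgeR, 0 with quantile normalisation or only the compared groups). EB8 against EB5 gave 2 in WT (1 with no filter) and 0 in KO (1 with quantile normalisation, DESeq2 or the block within genotype). The difference between genotypes gave 0 from EB5 to EB8 (1 with quantile normalisation or DESeq2) and 1 from ES to EB8 (2 with upper-quartile rescaling, 3 with quantile normalisation, 4 in DESeq2). With a library left out, members called ranged from 0 to 1 in ES, 0 to 2 at EB4, 0 to 3 at EB5 and 3 to 7 at EB8 for KO against WT. For EB4 against ES they ranged from 1 to 3 in WT and 0 to 1 in KO, for EB5 against EB4 from 0 to 4 and 0 to 2, for EB8 against EB5 from 1 to 3 and 0 to 1, for EB8 against ES from 4 to 7 and 4 to 5, and for the genotype difference from 0 to 1 (EB5 to EB8) and 1 to 3 (ES to EB8). Signs of uncalled differences turned at EB8 for Spred1 with upper-quartile rescaling (0.12), quantile normalisation (0.13), edgeR (0.03) and DESeq2 (0.02), and at EB5 for Dusp4 (0.05, 0.05, 0.01 and 0.02). With a library left out they turned in ES for Spry1 (-0.86 to 0.08), Spry2 (-0.01 to 1.39), Spry4 (-0.30 to 2.06), Spred1 (-0.80 to 0.80), Spred2 (-0.30 to 0.26), Dusp4 (-0.73 to 0.12) and Dusp6 (-1.20 to 0.92), at EB4 for Spred2 (-0.05 to 0.14), Dusp6 (-0.05 to 0.23) and Etv1 (-0.36 to 0.59), at EB5 for Spred1 (-0.67 to 0.12) and Dusp4 (-0.68 to 0.67) and at EB8 for Spred1 (-0.39 to 0.35) and Etv1 (-0.33 to 0.42). The causes were not tested.

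Over all genes, calls numbered 0 in ES (469 in DESeq2, 121 without the first WT ES library, 0 to 19 under the other settings), 986 at EB4 (2077 in DESeq2, 609 with no filter, 0 with only the compared groups or without the second KO EB4 library), 700 at EB5 (1719, 447 and 72, and 0 without the second KO EB5 library) and 3697 at EB8 (1907 to 4103 with a library left out). With the replicate block, members called were 0 in ES, 1 at EB4, 3 at EB5 and 5 at EB8, and 4 at EB8 with the KO numbers exchanged. The replicate block within genotype, added after the data were seen, raised the calls over all genes from 2668 to 4155 (EB4 against ES), 601 to 983 (EB5 against EB4) and 1683 to 2585 (EB8 against EB5) in WT, from 564 to 1395, 405 to 791 and 119 to 374 in KO, and for the genotype difference from 0 to 29 (ES to EB4), 126 to 259 (EB5 to EB8) and 1175 to 2527 (ES to EB8). No member lost a call under it. Depth is lower in embryoid bodies than in ES.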
